A study of Mus musculus with 6 samples.

Results

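*Gpnmb* was read together with 6 genes of the *Trem2* lipid-associated macrophage program, *Trem2*, *Tyrobp*, *Spp1*, *Lgals3*, *Cd9* and *Cd63*, in CD11b+ cells purified from mouse tumors. These 7 genes are 7 of the 25701 rows of the deposited count table, each found by its symbol, and all 7 passed the filter on low counts that left 13485 genes. They were chosen with the difference between the MCT2 KO and MCT2 CO libraries already known, *Gpnmb* for its high level in MCT2 KO and the others as companions of *Trem2*. Their values in that comparison are therefore given as a description, without a test.

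MCT2, encoded by *Slc16a7*, is a transporter of pyruvate and lactate. Mice of both groups carried MCT2loxP/loxP alleles and a Cre transgene from mCre-Tg mice on a C57BL/6 background, and were young males treated at 8 weeks of age. MCT2 KO mice received tamoxifen, which activates the Cre to delete MCT2 throughout the body, and MCT2 CO mice received vehicle, so the controls carried the same alleles but had no tamoxifen and deletion cannot be told apart from tamoxifen itself. TC1 cells, a mouse lung epithelial tumor line, grew under the skin of the flank for 24 days before CD11b+ cells were selected with magnetic beads, although the sample labels give lung for the tissue. Each group had 3 libraries, named here as replicates 1 to 3.

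TREM2 is a lipid-sensing receptor of macrophages and microglia that has almost no signaling tail of its own and passes its signal through the adaptor TYROBP, also called DAP12. Macrophages that take up lipid or cell debris switch on a *Trem2*-dependent set of genes, found in fat tissue, atherosclerotic plaques, degenerating brain and tumors, which includes *Spp1*, *Lgals3*, *Cd9* and *Cd63*. *Gpnmb* encodes a membrane glycoprotein of lysosomes and melanosomes that is often listed with this set and is also controlled by the MiT/TFE transcription factors of lysosome stress.

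The promoters of the members were searched for the letters of factors known in macrophages, which only some of them hold. The part of these letters in the differences between groups was not tested. RefSeq windows of GRCm38.p6, from 250 bases before to 50 after a transcript start, were found for 6 of the 7 genes, in 7 windows since *Spp1* had 2; *Tyrobp* had none. The 3 windows with a match follow, 5′ to 3′ on the plus strand, with matches in capitals. They lie at chr6:49036268-49036567 for *Gpnmb*, chr17:48346151-48346450 for *Trem2* and chr5:104434861-104435160 for *Spp1*.
Gpnmb: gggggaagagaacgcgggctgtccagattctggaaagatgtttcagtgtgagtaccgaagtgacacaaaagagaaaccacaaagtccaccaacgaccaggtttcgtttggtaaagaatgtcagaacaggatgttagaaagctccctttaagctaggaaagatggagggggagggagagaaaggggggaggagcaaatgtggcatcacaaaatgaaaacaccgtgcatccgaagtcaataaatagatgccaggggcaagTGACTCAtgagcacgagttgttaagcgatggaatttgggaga
Trem2: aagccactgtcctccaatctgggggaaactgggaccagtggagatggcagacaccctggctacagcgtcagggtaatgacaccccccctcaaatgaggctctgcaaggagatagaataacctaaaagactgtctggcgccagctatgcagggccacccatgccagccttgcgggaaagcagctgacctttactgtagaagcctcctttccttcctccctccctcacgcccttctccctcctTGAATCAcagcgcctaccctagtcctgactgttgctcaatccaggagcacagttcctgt
Spp1: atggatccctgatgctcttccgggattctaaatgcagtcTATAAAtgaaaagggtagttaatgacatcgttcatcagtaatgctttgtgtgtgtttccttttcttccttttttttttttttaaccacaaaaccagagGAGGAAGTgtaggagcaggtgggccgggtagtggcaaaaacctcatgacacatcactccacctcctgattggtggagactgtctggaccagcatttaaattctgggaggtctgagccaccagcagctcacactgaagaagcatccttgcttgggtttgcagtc
The capitals mark TGANTCA, the letters bound by AP-1, at bases 9 to 15 after the *Gpnmb* start and at bases -9 to -3 before the *Trem2* start. In the *Spp1* window they mark TATAAA at -211 to -206 and GAGGAAGT, a form of the site of the macrophage factor PU.1, at -113 to -106. On both strands, TGANTCA was held by 7.81% of 32851 RefSeq promoters, GAGGAAGT by 3.2% and TATAAA by 13.6%. The E-box CACGTG and the M-boxes TCACGTG and TCATGTG, letters read by MiT/TFE factors, overlap one another in part and were in 0 of the 7 windows, against 7.15%, 3.77% and 3.77% of all promoters. These are matches of letters in a short window, and say nothing about whether a factor bound there.

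Total counts ranged from 24863611 to 31713704 per library, and *Slc16a7* was lower in MCT2 KO, at 12.8 ± 2.84 CPM for MCT2 CO against 6.18 ± 1.78 CPM for MCT2 KO (SD, n = 3), where CPM are counts scaled to the TMM-normalized library size. The macrophage markers were strong in every library, led by the complement genes *C1qa* and *C1qb*, but *Itgam*, which encodes CD11b, had 1 count over the 6 libraries. By GENCODE M21, 99.14% of the exon bases of *Itgam* lie within the span of another listed gene, *Gm49368*, so its row was no check of the selection. Fibroblast genes were also present, with *Col3a1* at 805 to 2028 CPM. By the quasi-likelihood test of edgeR, 0 of 13485 genes (0.0%) met the thresholds for a call, an adjusted p no higher than 0.05 and a log2 fold change of 0.58 or more in size, and 1264 (9.37%) had an unadjusted p under 0.05. Under these thresholds DESeq2, run on the 18508 genes with any count, called 83 (0.448%), and limma-voom called 0.

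*Gpnmb* (ENSMUSG00000029816) is a protein-coding gene on the plus strand of chromosome 6, at chr6:49036546-49070929 in GENCODE M21 on GRCm38. Its raw counts were 99, 88 and 47 in the MCT2 CO libraries, in replicate order, and 302, 557 and 418 in the MCT2 KO libraries. Scaled to library size these were 3.30, 3.38 and 1.77 CPM in MCT2 CO and 12.7, 17.1 and 16.8 CPM in MCT2 KO. Every MCT2 KO library was above every MCT2 CO library, and the lowest MCT2 KO value was 3.74 times the highest MCT2 CO value. The group means were 2.82 ± 0.91 and 15.5 ± 2.48 CPM (SD, n = 3), a fitted difference of 5.49-fold, or 2.46 on the log2 scale (standard error 0.25). Counting alone gives these libraries an error of 4.24% to 14.6% of the value, whereas the SD was 32.3% of the mean in MCT2 CO and 16.0% in MCT2 KO.

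**Figure D1:**
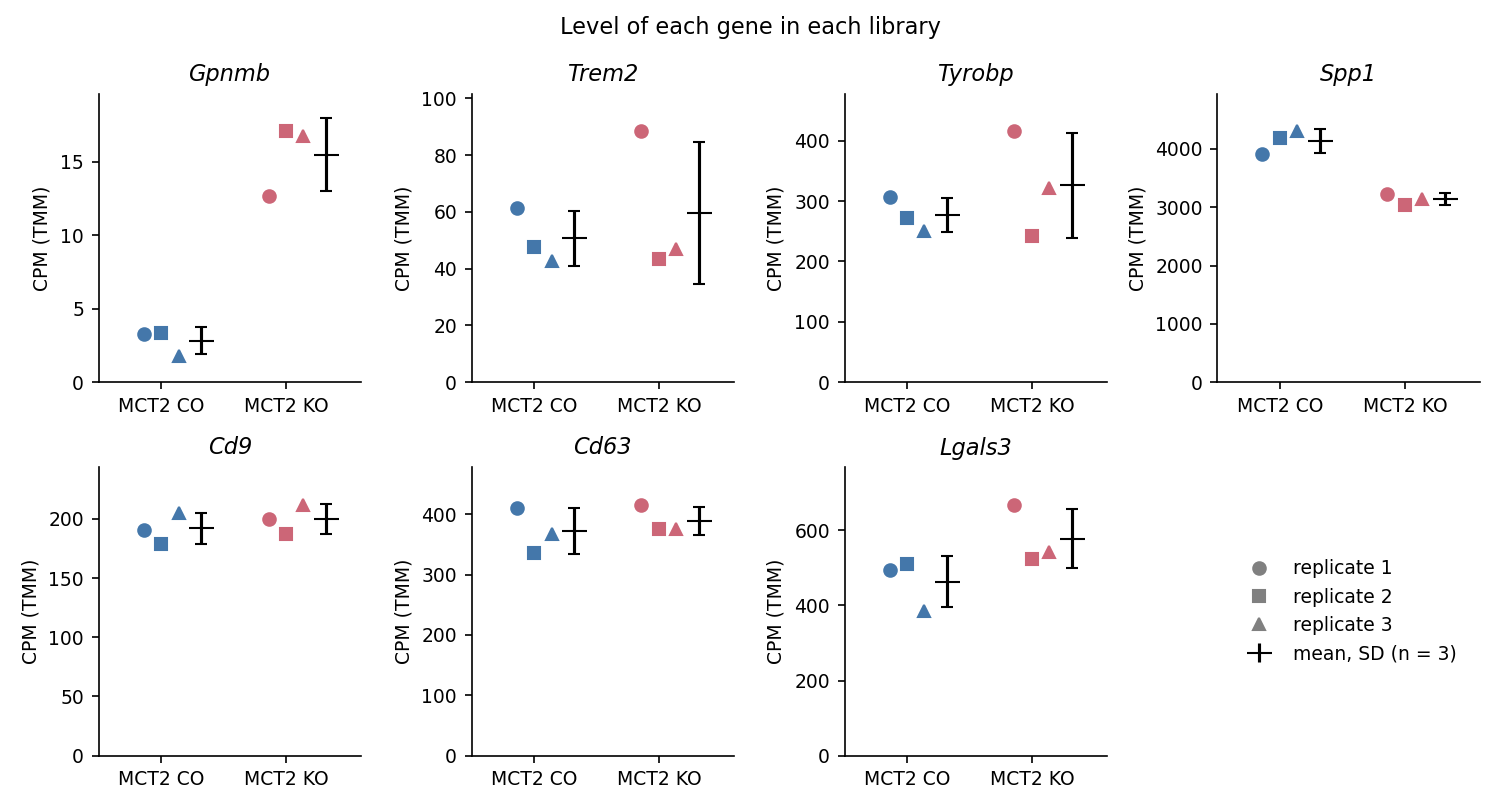
Level of each of the 7 genes in each library, in TMM-normalized CPM on linear axes from 0; symbols mark replicates 1 to 3 of MCT2 CO (blue) and MCT2 KO (red), and black bars the mean and SD (n = 3). *Gpnmb* lies at 1.77 to 3.38 CPM in MCT2 CO and 12.7 to 17.1 in MCT2 KO, *Spp1* is lower in each MCT2 KO library, *Lgals3* is separated by a small gap, and the other 4 genes overlap.

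The receptor and its adaptor did not share the pattern of *Gpnmb*. *Trem2* (ENSMUSG00000023992, plus strand, chr17:48346401-48354147) stood at 61.4, 47.6 and 42.7 CPM in MCT2 CO and at 88.4, 43.4 and 46.9 CPM in MCT2 KO. One library, MCT2 KO replicate 1, was the highest, and the other 2 MCT2 KO libraries lay among the controls. The means were 50.6 ± 9.72 and 59.6 ± 25.0 CPM (SD, n = 3). The log2 fold change was 0.23, with a standard error of 0.27, and became -0.16 without MCT2 KO replicate 1.

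*Tyrobp* (ENSMUSG00000030579, plus strand, chr7:30413760-30417585) was likewise highest in MCT2 KO replicate 1. It stood at 307, 272 and 251 CPM in MCT2 CO and at 416, 242 and 321 CPM in MCT2 KO, so that the highest and the lowest values of the 6 were both in MCT2 KO. Its means were 277 ± 28.5 and 326 ± 87.0 CPM (SD, n = 3) and its log2 fold change 0.24 (standard error 0.19), which lay between 0.03 and 0.41 when single mice were left out.

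The secreted members differed in direction. *Spp1* (ENSMUSG00000029304, plus strand, chr5:104435118-104441050) encodes osteopontin, a ligand of integrins and CD44. It was the most abundant of the 7 per length (values are given further on), and stood at 3911, 4185 and 4305 CPM in MCT2 CO and 3235, 3038 and 3140 CPM in MCT2 KO. Every MCT2 KO library was below every MCT2 CO library, and the highest MCT2 KO value was 0.827 of the lowest MCT2 CO value. The means were 4134 ± 202 and 3138 ± 98.6 CPM (SD, n = 3), 0.759-fold in MCT2 KO, with a log2 fold change of -0.40 (standard error 0.11). The summed fibroblast markers moved the same way, from 2015 to 3295 CPM in MCT2 CO and from 1680 to 1790 CPM in MCT2 KO. Of 6 genes, 3 (*Col3a1*, *Dcn* and *Lum*) were lower in every MCT2 KO library, beside 8.77% of all genes tested. DESeq2 called these 3, beside 0.448% of the genes it tested, and edgeR 0. *Col1a1*, *Col1a2* and *Pdgfra* overlapped, at log2 fold changes of -0.62, -0.23 and -0.06. The part of the fibroblast markers in the *Spp1* difference was not tested. In tissue made of several cell types, fewer cells of a type and less RNA per cell cannot be told apart, here and below. Of the exon bases of *Spp1*, 18.75% lie within the span of *Gm42793*, which had 0 counts, and the exons of the other members overlap no listed gene.

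*Lgals3* (ENSMUSG00000050335, plus strand, chr14:47367751-47386160) encodes galectin-3, a lectin of phagocytes that marks damaged lysosomes. It stood at 493, 511 and 385 CPM in MCT2 CO and at 668, 524 and 541 CPM in MCT2 KO. The groups did not overlap, but the gap was narrow, with the lowest MCT2 KO library 1.02 times the highest MCT2 CO library. The means were 463 ± 68.4 and 577 ± 78.8 CPM (SD, n = 3) and the log2 fold change 0.32 (standard error 0.14).

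The tetraspanins, membrane proteins of endosomes and exosomes, showed the smallest differences. *Cd9* (ENSMUSG00000030342, minus strand, chr6:125460266-125494791) ranged from 179 to 205 CPM in MCT2 CO and from 187 to 212 CPM in MCT2 KO, with a log2 fold change of 0.06 (standard error 0.09). *Cd63* (ENSMUSG00000025351, plus strand, chr10:128900989-128912822) ranged from 336 to 411 CPM in MCT2 CO and from 375 to 416 CPM in MCT2 KO, with a log2 fold change of 0.06 (standard error 0.10). The groups overlapped for both genes.

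Of the 7 genes, 2 (*Gpnmb* and *Lgals3*) were higher in every MCT2 KO library than in any MCT2 CO library, and 1 (*Spp1*) was lower in every one. Over all genes tested, 7.07% were above in this way and 8.77% below. Since the genes were chosen on this comparison, nothing is read from their counts against these shares.

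Because *Trem2* varied between mice, *Gpnmb* was also expressed against it, and against *Spp1*, within each library. Per 100 *Trem2* counts, the MCT2 CO libraries held 5.37, 7.10 and 4.14 *Gpnmb* counts and the MCT2 KO libraries 14.3, 39.4 and 35.8, in replicate order. The groups did not overlap, and the lowest ratio in MCT2 KO was in replicate 1, the library with the most *Trem2*. *Gpnmb* per 100 *Spp1* counts was 0.0411 to 0.0844 in MCT2 CO and 0.391 to 0.563 in MCT2 KO. In contrast, *Trem2* per 100 *Tyrobp* counts was 17.0 to 20 in MCT2 CO and 14.6 to 21.3 in MCT2 KO, so that the ranges overlapped.

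**Figure D2:**
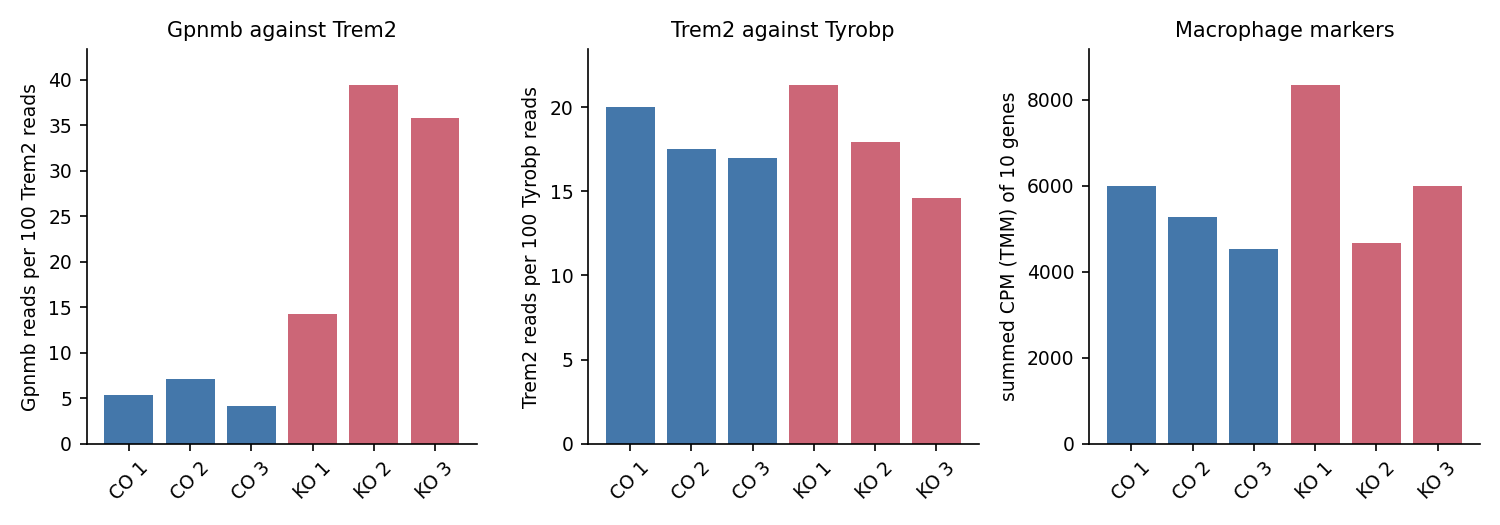
Counts of *Gpnmb* per 100 *Trem2* counts (left), counts of *Trem2* per 100 *Tyrobp* counts (middle) and summed CPM of the 10 macrophage markers (right), one bar per library of MCT2 CO (blue) and MCT2 KO (red), all axes from 0. The first ratio is 4.14 to 7.10 in MCT2 CO and 14.3 to 39.4 in MCT2 KO, the second overlaps between groups, and the marker sum is highest in MCT2 KO replicate 1.

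The 10 macrophage markers (9 above the filter) summed to 5999, 5278 and 4523 CPM in MCT2 CO and to 8340, 4678 and 6005 CPM in MCT2 KO. None of the 9 was separated between the groups, and MCT2 KO replicate 1 had the highest sum, as it had the highest *Trem2* and *Tyrobp*. That library had the lowest *Gpnmb* of its group. The part of the macrophage markers in the levels of *Trem2* and *Tyrobp* was not tested.

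With the group means subtracted, the log2 levels of *Trem2* and *Tyrobp* had a Pearson r of 0.91 over the 6 libraries. The r of *Trem2* was 0.80 with *Lgals3* and 0.72 with *Cd63*, while that of *Gpnmb* was -0.11 with *Trem2* and -0.10 with *Tyrobp*. The 6 points share library depth and cell makeup and leave few degrees of freedom, so these values only describe which genes varied together between mice.

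*Gpnmb* is also a gene of pigment cells, and its nearest relative *Pmel* was measured with 4 other melanocyte genes. *Dct* and *Tyrp1* had 0 counts in every library. *Pmel* stood at 1.69 ± 0.204 CPM in MCT2 CO and 1.40 ± 0.0911 CPM in MCT2 KO (SD, n = 3), lower in every MCT2 KO library while *Gpnmb* was higher. Summed over the 5 genes the level, most of it *Pmel*, was 1.73 to 2.14 CPM in MCT2 CO and 1.49 to 1.68 CPM in MCT2 KO. The part of pigment cells in the *Gpnmb* difference was not tested.

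Markers of other cells were compared in the same libraries. Of the 8 neutrophil genes that passed the filter, 6 were higher in every MCT2 KO library, beside 7.07% of all genes tested, among them *S100a9* at 2.58 to 4.18 CPM in MCT2 CO and 7.63 to 20.9 CPM in MCT2 KO. The summed neutrophil level, led by *Csf3r*, was 83.3 to 103 CPM in MCT2 CO and 69.6 to 186 CPM in MCT2 KO, with the lowest and the highest sums both in MCT2 KO. DESeq2 called 5 of the 8, *S100a8*, *S100a9*, *Retnlg*, *Ngp* and *Mmp8*, beside 0.448% of the genes it tested, and edgeR called 0. Within MCT2 KO, *S100a9* was highest in replicate 1 and *Mmp8* in replicate 2, and the part of these genes in the *Gpnmb* difference was not tested. The summed monocyte level was 1734 to 2476 CPM in MCT2 CO and 1703 to 2271 CPM in MCT2 KO. Most of it was *Fn1*, also a matrix gene, at 1376 to 2015 and 1325 to 1775 CPM. Of the 8 monocyte genes, 1 was higher in every MCT2 KO library, beside 7.07% of all genes tested, and 0 were lower in every one. It was *F13a1*, named after its values were seen, at 24.5 to 30.1 and 47.8 to 130 CPM. The ranges of both groups also overlapped for the summed markers of dendritic cells, B cells, T and NK cells, endothelial cells and epithelial or tumor cells. For the first 3 of these, MCT2 KO replicate 2, with *Gpnmb* close to that of replicate 3 (17.1 and 16.8 CPM), was below every control. It stood at 22.4, 23.0 and 5.77 CPM, against 38.8 to 48.2, 77.3 to 88.4 and 20.4 to 36.6 CPM in MCT2 CO. Its endothelial sum was also below, at 78.9 against 90.4 to 98.2 CPM. Of the genes that passed the filter, 1 of 6, 2 of 5 and 2 of 7 in the first 3 lists were lower in every MCT2 KO library, beside 8.77% of all genes tested. Most of the epithelial or tumor sum was *Cdh1*, while *Krt8*, *Krt18* and *Krt19* had 0 to 4 counts in each library. The paper states that telling TC1 cells from host mesenchymal cells would need further analyses, so the share of tumor cells was not measured by these sums.

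Levels can be set between genes only per length. Divided by the length of its merged exons, *Spp1* stood at 2508 ± 122 CPM per kilobase for MCT2 CO against 1904 ± 59.8 for MCT2 KO (SD, n = 3), and *Gpnmb* at 0.433 ± 0.14 and 2.38 ± 0.38. Between them, in falling order of the mean MCT2 CO level per kilobase, lay *Tyrobp* at 415 ± 42.7, *Lgals3* at 249 ± 36.8, *Cd63* at 101 ± 10.2, *Cd9* at 93.8 ± 6.43 and *Trem2* at 10.2 ± 1.97 CPM per kilobase. The means of *Cd63* and *Cd9* differed by less than the SD of *Cd63*, and each other neighboring pair by more than the SDs of both. *Gpnmb* was thus the lowest of the 7 in every library, at percentiles 6.16 to 12.5 of 13467 genes in MCT2 CO and 26.3 to 30.9 in MCT2 KO, while *Trem2* lay at percentiles 58.0 to 67.6 and 58.7 to 76.7.

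**Figure D3:**
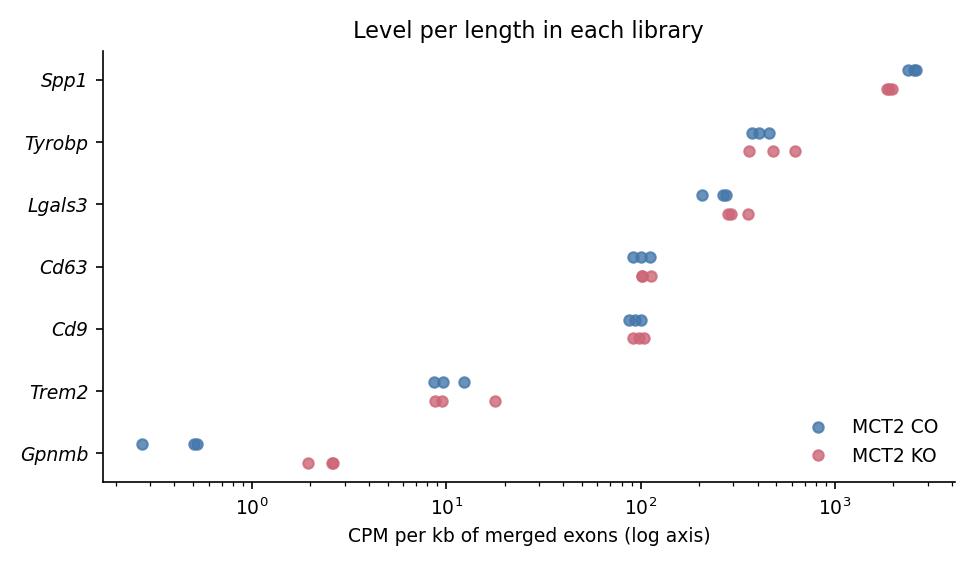
Level of each gene in each library of MCT2 CO (blue) and MCT2 KO (red), in CPM per kilobase of merged exons on a log axis. *Spp1* lies at 1844 to 2612, *Trem2* between 8.63 and 17.9, and *Gpnmb* at the bottom, at 0.271 to 0.520 in MCT2 CO and 1.94 to 2.62 in MCT2 KO.

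The choice of length mattered most for *Trem2* and *Cd63*, whose merged exons, at 4946 and 3682 bases, are far longer than their longest coding transcripts, at 1088 and 1109 bases. Per kilobase of the longest coding transcript, *Trem2* was at 46.5 ± 8.94 and 54.7 ± 23.0 CPM and *Cd63* at 335 ± 34.0 and 351 ± 21 CPM in MCT2 CO and MCT2 KO, and *Cd63* then stood beside *Lgals3*, at 326 ± 48.2 CPM in MCT2 CO. *Gpnmb* remained the lowest on that scale, at 0.761 ± 0.246 and 4.19 ± 0.669 CPM per kilobase. The table gives whole gene spans as lengths, so reads from introns may be part of each count.

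The wider program was read from 10 lists of related genes, of which 133 genes were in the table and 124 passed the filter. By edgeR 0 of the 124 were called, with a smallest adjusted p of 0.37. At an unadjusted p under 0.05 there were 22, beside 9.37% of all genes tested. DESeq2 on all genes called 6, *Fabp5*, *Mmp12*, *Ocstamp*, *Bnip3*, *Adm* and *Pdk1*, all higher in MCT2 KO, beside 0.448% of the genes it tested. The count by limma-voom was 0. Every MCT2 KO library was above every MCT2 CO library for 20 of the 124 (16.1%) and below for 3 (2.42%), beside 7.07% and 8.77% of all genes tested. The median log2 fold change was 0.161, against 0.0 over all genes tested. The lists were drawn up with earlier results of these data known. These shares, here and for each list below, are therefore descriptions only.

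Of the other lipid-associated macrophage genes, 23 of 24 passed the filter, 22 with a log2 fold change above 0 and 1 below, and a median of 0.366. Over all genes tested, 6753 of 13485 were above 0. Under edgeR 0 were called, and 7 had an unadjusted p under 0.05, beside 9.37% of all genes tested. In every MCT2 KO library 5 were higher than in any MCT2 CO library, beside 7.07% of all genes tested. *Fabp5*, a fatty acid carrier, stood at 22.1, 19.3 and 15.9 CPM in MCT2 CO and 38.5, 51.8 and 29.8 CPM in MCT2 KO, with a log2 fold change of 1.07 (standard error 0.21). *Mmp12*, the macrophage elastase, stood at 21.1, 27.7 and 19.2 CPM in MCT2 CO and 44.5, 56.2 and 28.8 CPM in MCT2 KO, with a log2 fold change of 0.93 (standard error 0.24). Both were highest in MCT2 KO replicate 2 and lowest of their group in replicate 3, although *Gpnmb* was almost the same in these libraries, at 17.1 and 16.8 CPM. The lysosomal protease *Ctsd*, the lipid droplet coat *Plin2* and *Vat1* were also higher in every MCT2 KO library, at log2 fold changes of 0.35, 0.44 and 0.41, and these 3 were named after their values were seen. However, 63.72% of the exon bases of *Ctsd* lie within the span of *Gm49369*, and 18.91% of those of *Vat1* within that of *Rnd2*. *Cst7* and the lipid scavenger receptor *Cd36* were at log2 fold changes of 0.72 and 0.64, with groups that overlapped. *Apoe*, a lipid carrier and ligand of TREM2, had a log2 fold change of 0.12, with a standard error of 0.38, and like *Trem2* it was highest in MCT2 KO replicate 1, at 6368 CPM against 2299 to 4842 CPM in the other 5 libraries.

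**Figure D4:**
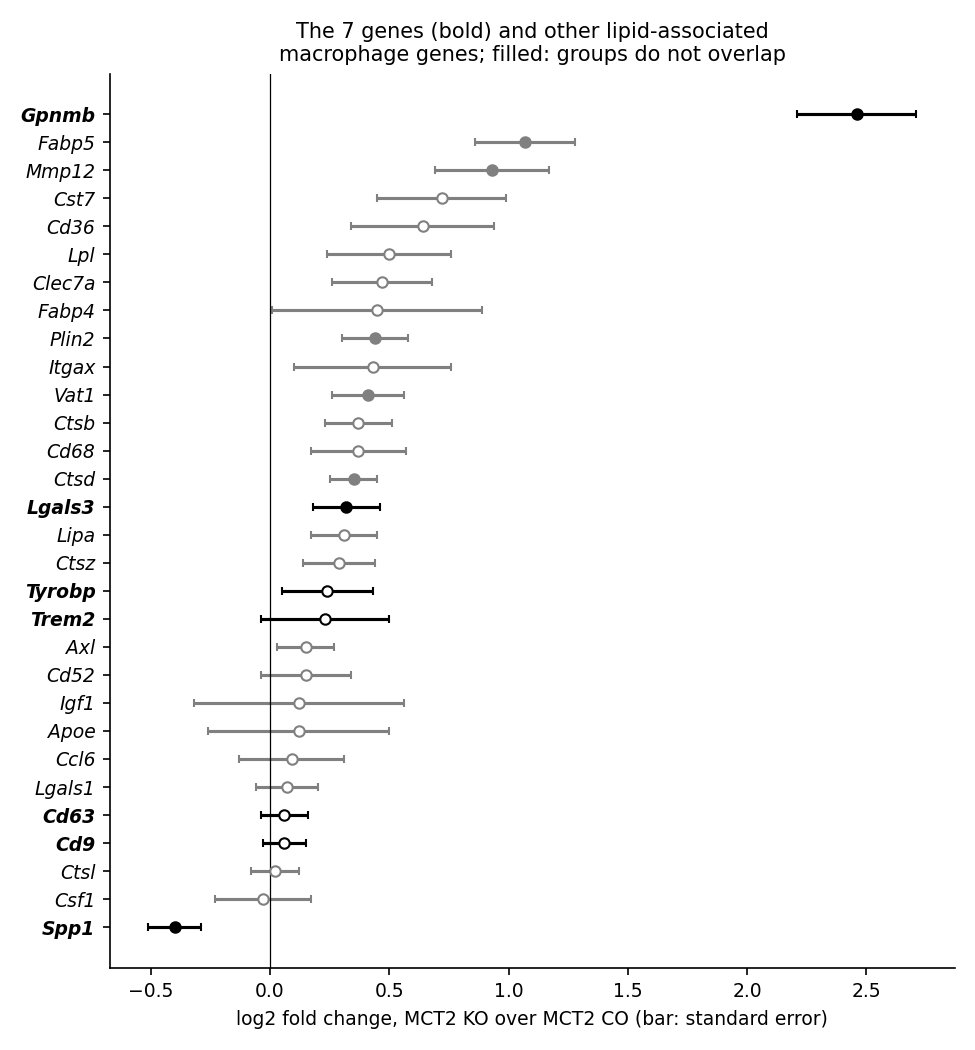
Log2 fold change of MCT2 KO over MCT2 CO with its standard error from edgeR for the 7 genes (black, bold names) and the 23 other lipid-associated macrophage genes that passed the filter (grey); filled circles mark genes whose groups did not overlap. *Gpnmb* stands at 2.46, *Fabp5* and *Mmp12* follow at 1.07 and 0.93, *Trem2* and *Tyrobp* lie at 0.23 and 0.24, and *Spp1* is lowest at -0.40.

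The signaling genes around TREM2 and TYROBP showed no such separation. All 17 passed the filter, 14 had a log2 fold change above 0 and 3 below, with a median of 0.163 and a range of -0.06 to 0.32. In 0 of the 17 were the groups apart, and 0 had an unadjusted p under 0.05 by edgeR, or were called by DESeq2. Over all genes tested, 7.07% were apart upward, 8.77% downward, and 9.37% had such an unadjusted p. Among those with a mean of at least 5 CPM, the largest values were those of *Ptpn6*, a phosphatase, at 0.32, the kinase *Btk* at 0.24, the adaptor *Fcer1g* at 0.21 and the lipid phosphatase *Inpp5d* at 0.20.

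Among 13 other receptors that pair with TYROBP, 10 were above 0 and 3 below, with 0 called by edgeR or DESeq2. By edgeR 3 had an unadjusted p under 0.05, beside 9.37% of all genes tested. In every MCT2 KO library 2 were higher and 1 was lower, beside 7.07% and 8.77% of all genes tested. *Sirpb1c* stood at 45.9 ± 9.89 CPM in MCT2 CO and 70.4 ± 7.33 CPM in MCT2 KO (SD, n = 3), with groups that did not overlap. *Cd300lb* was likewise separated, at 9.18 ± 0.714 and 12.2 ± 1.63 CPM. *Klra8*, named after its values were seen, was separated in the other direction at a low level, with 1.89 ± 0.899 CPM for MCT2 CO and 0.859 ± 0.146 CPM for MCT2 KO and a log2 fold change of -1.13, the largest in size of the list. *Clec5a* and *Klra4* overlapped, with log2 fold changes of 0.39 and 0.25. The *Sirpb1* and *Klra* genes belong to families of near-identical copies, so their counts may be shared among relatives.

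Genes of osteoclasts and of macrophage fusion are a further set in which *Gpnmb*, *Trem2*, *Tyrobp* and *Spp1* are all known. Of 11 genes 9 passed the filter, 8 with a log2 fold change above 0 and 1 below, with 0 called by edgeR. At an unadjusted p under 0.05 there were 3, beside 9.37% of all genes tested. In every MCT2 KO library 3 were higher, beside 7.07% of all genes tested. *Ocstamp*, a membrane protein needed for cell fusion, stood at 16.1, 18.6 and 12.1 CPM in MCT2 CO and 31.3, 30.8 and 23.6 CPM in MCT2 KO, with a log2 fold change of 0.88 (standard error 0.18). Its partner *Dcstamp* and the proton pump subunit *Atp6v0d2*, named after their values were seen, were also separated, at 2.35 ± 0.921 and 4.91 ± 2.29 CPM and at 1.08 ± 0.572 and 2.42 ± 0.854 CPM (SD, n = 3). The phosphatase *Acp5*, the gelatinase *Mmp9* and the integrin *Itgb3* overlapped, at log2 fold changes of 0.56, 0.33 and 0.24.

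The MiT/TFE factors and their partners, which control *Gpnmb* in other cells, had a median log2 fold change of 0.035 over 11 genes, 9 above 0 and 2 below. Of these 0 were called by edgeR or DESeq2, and 1 had an unadjusted p under 0.05 by edgeR, beside 9.37% of all genes tested. The factors themselves overlapped between groups: *Mitf* was at 30.1 ± 1.13 and 30.9 ± 4.93 CPM, *Tfe3* at 108 ± 9.47 and 108 ± 9.87 CPM and *Tfeb* at 23.6 ± 1.69 and 22.6 ± 6.13 CPM (SD, n = 3), values added because the list is defined by these factors. *Tfec*, the relative found mainly in macrophages, was at 7.21 ± 1.52 and 10.3 ± 3.33 CPM at a log2 fold change of 0.51 and a standard error of 0.26, and also overlapped. *Fnip2*, a partner of folliculin (*Flcn*), had a log2 fold change of 0.35. It was the 1 gene of the 11 higher in every MCT2 KO library, beside 7.07% of all genes tested. The groups nearly touched, since its lowest MCT2 KO and highest MCT2 CO libraries both stood at 48.4 CPM after rounding. Moreover, 46.44% of its exon bases lie within the span of *Gm17359*. *Mcoln1*, a lysosomal calcium channel, was at 0.17 and *Flcn* at 0.07.

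Known partners and relatives of the other members and of GPNMB had median log2 fold changes near 0. Of 12 genes for receptors, proteases and family relatives of osteopontin that passed the filter, 8 were above 0 and 4 below, with a median of 0.085. Of these 1, the protease *Mmp3*, was higher in every MCT2 KO library, beside 7.07% of all genes tested, at a log2 fold change of 0.23. *Cd44*, a receptor of osteopontin and of GPNMB, was at -0.08 and *Itgav* at 0.21. The 7 partners and relatives of GPNMB had log2 fold changes of -0.26 to 0.10, with *Sdc4* at 0.10, *Itga5* at 0.07 and *Itgb1* at 0.07. Of the 7, 1 (*Sdc4*) was higher and 1 (*Pmel*) lower in every MCT2 KO library, beside 7.07% and 8.77% of all genes tested. Of 7 other galectin genes 5 were above 0 and 2 below, with *Lgals3bp*, which binds galectin-3, at 0.31, *Lgals8* at 0.18, *Lgals9* at 0.12 and *Lgals7* at -0.38. *Lgals2*, named after its values were seen, had the largest change in size of that list, at 3.63 ± 2.07 and 1.40 ± 0.178 CPM (SD, n = 3) and a log2 fold change of -1.38. It was the 1 gene of the 7 lower in every MCT2 KO library, beside 8.77% of all genes tested. The other tetraspanins and their partners had 11 genes above 0 and 12 below, with *Ptgfrn*, a partner of CD9, at -0.39, *Tspan7* at 0.38, *Tspan13* at -0.34 and *Tspan17* at -0.28. Of these 1, *Tspan31*, named after its values were seen, was higher in every MCT2 KO library, at 0.16, beside 7.07% of all genes tested. In these 4 lists 0 genes were called by edgeR or by DESeq2. By edgeR 1 galectin and 1 tetraspanin gene had an unadjusted p under 0.05, beside 9.37% of all genes tested.

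Hypoxia response genes were included because *Gpnmb* and *Spp1* are often read with them in tumors. All 10 had a log2 fold change above 0, with a median of 0.38, and 6 were higher in every MCT2 KO library, beside 7.07% of all genes tested. By edgeR 0 were called and 6 had an unadjusted p under 0.05, beside 9.37% of all genes. DESeq2 called 3, beside 0.448% of the genes it tested. *Adm*, which encodes adrenomedullin, was at 6.68 ± 1.64 and 13.2 ± 3.6 CPM (SD, n = 3) with a log2 fold change of 0.99. The mitophagy receptor *Bnip3* was at 35.0 ± 8.87 and 62.7 ± 6.60 CPM, with a log2 fold change of 0.84. The pyruvate dehydrogenase kinase *Pdk1* and the glycolytic enzyme *Pgk1* were at log2 fold changes of 0.78 and 0.42. *Adm*, *Pdk1* and *Bnip3* were highest in MCT2 KO replicate 2 and lowest of their group in MCT2 KO replicate 1. *Gpnmb* had the same order, but replicates 2 and 3 were almost equal, at 17.1 and 16.8 CPM. In contrast, *Vegfa*, *Car9* and *Egln3*, named after their values were seen, were lowest of their group in MCT2 KO replicate 2. The part of this response in the level of *Gpnmb* was not tested.

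The genes whose levels ran closest to *Gpnmb* were sought among 10613 genes with a mean of at least 5 CPM, by Pearson correlation of log2 CPM over the 6 libraries. They were *Polr3b*, a subunit of RNA polymerase III, with r = 0.997, *Tbcel* with 0.994, the translation factor subunit *Eif2b5* with 0.990, *Ccng2*, a cyclin, with 0.989 and *Siae* with 0.987. Their own log2 fold changes, 0.17 to 0.39, were far smaller than that of *Gpnmb*. After subtracting the group means, the closest were *Ccdc91*, *Il33*, *Npr1*, *Ccdc141* and *Aasdh*, with r from 0.996 to 1.0. With 6 libraries that share depth and cell makeup and this many genes searched, these are descriptions of shape only. None of the genes of either set is among the 7.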

How the data were processed

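RNA-seq counts of tumor CD11b+ cells were analysed for 6 libraries, 3 in each of the MCT2 CO and MCT2 KO groups. The sample titles call them replicates, and each was taken here as a single mouse. Poly-A libraries were made with a stranded kit. Per the labels, the authors used FastQC, STAR and featureCounts with GRCm38, and they deposited raw counts per gene, without normalization or pooling. The annotation, the feature type and the strand setting of the counting are not given in the sources used here. The lengths in the table are whole gene spans. Of its 25701 identifiers, 25594 are in GENCODE M21, where the span length is identical for 98.1% and the start for 2.2%, so positions and exons were taken from GENCODE M21 on GRCm38 by identifier.

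Counts were filtered with filterByExpr (minimum count 10, minimum total 15), scaled by TMM and tested with the quasi-likelihood test of edgeR 4.0.16 in R 4.3.3 without covariates, with Benjamini–Hochberg adjustment over all genes kept. A call needed an adjusted p no higher than 0.05 and a log2 fold change of 0.58 or more in size. DESeq2 1.42.0, limma 3.58.1 (voom), other scalings and filters, a replicate block and samples left out were the alternatives. The members, the lists and the rules were chosen with earlier results of these data known. Besides the members and *Slc16a7*, the genes named were the 4 with the largest absolute log2 fold change in each list at a mean of at least 5 CPM, any called gene, the 5 most like *Gpnmb* over the libraries before and after subtracting group means (prior count 2), and the 2 most abundant and the undetected genes of each marker list; others are named as such or as examples. P values set the difference between groups against the spread between libraries of a group. Replicate libraries of a group differed by far more than counting noise.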

Additional observations from a re-analysis of the deposited data

How the results depend on the processing

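Under 15 alternative fits *Gpnmb* kept a log2 fold change of 2.14 to 2.61. It was 2.47 by DESeq2 on all and on the filtered genes, 2.46 with no filter on low counts and 2.14 with both MCT2 CO replicate 3 and MCT2 KO replicate 2 left out, a choice made after seeing the data. These 4 fits put *Gpnmb* among the called genes and the others did not, which is no independent evidence, since it was chosen on this contrast. Calls over all genes went from 0 to 83 and 79 by DESeq2 on all and on the filtered genes, to 2 with no filter, to 10 with both libraries left out, and to between 0 and 2 with each mouse left out, the 2 being without MCT2 KO replicate 2. Calls among related genes went from 0 to 6 by DESeq2 with either set of genes, and stayed at 0 in the other alternatives. The log2 fold change of *Trem2* ranged from -0.16 (without MCT2 KO replicate 1) to 0.42 with each mouse left out, and that of *Cd63* from -0.0025 (without MCT2 CO replicate 2) to 0.14. The other members kept their direction, *Spp1* at -0.44 to -0.34 and *Lgals3* at 0.20 to 0.40. The count of members above in every MCT2 KO library was 2 or, without MCT2 CO replicate 1 or without MCT2 KO replicate 2, 3. *Gpnmb* per kilobase in MCT2 KO was 2.38 by merged exons, 4.19 by the longest coding transcript, a length also added after seeing the data, and 0.451 by the span lengths of the table. Same-numbered libraries of the groups did not deviate together (r = 0.216, -0.247 and -0.161), and with the number as a replicate block 0 genes were called and *Gpnmb* was at 2.48. At 47 to 99 counts in MCT2 CO, depth limits the *Gpnmb* level there more than that of any other member. The cause of the differences between tools was not tested.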
